A study of Mus musculus with 18 samples.

Results

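The livers of mice that carried the gut microbiota of alginate oligosaccharide donors while they ate a high-fat diet (A10-FMT) were compared with the livers of mice on the regular diet (Con), to measure how far from the regular-diet liver the recipients stood. The livers were chosen by their labels, 3 A10-FMT and 3 Con, which are 6 of the 18 livers sequenced. Of 19057 lines of gene symbols, 10507 genes reached an RPKM of 1 in 3 or more of the 18 livers and were tested. RPKM is the number of reads of a gene per kilobase of its length, scaled to the reads mapped in the library.

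The study sequenced liver RNA of male ICR mice, 10 weeks old by their labels, in 6 groups of 3. Con mice had the regular diet and saline, and HFD mice the high-fat diet and saline. Con-FMT mice had the high-fat diet and the small intestinal content of control donors. A10-FMT mice had the same diet and the content of donors given 10 mg/kg of alginate oligosaccharide (AOS), a short chain of sugars cut from the alginate of brown seaweed. The donor content was pooled, so that the recipients of a group shared a source. AOS mice and HFD+AOS mice were dosed with AOS themselves, on the regular and the high-fat diet. A10-FMT and Con livers differ both in diet and in transplant, and these cannot be told apart in a comparison of these groups alone. The hour of collection and the feeding state are not given in the sources used here.

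The RPKM of the 6 livers summed to between 749557 and 806937, with 14698 to 14982 genes above 0 and 33.6% to 39.0% of the sum in the 10 most abundant genes. The number of reads behind these values is unknown. Hepatocyte markers identified the tissue as liver in all 6, with a summed RPKM of 41680 to 61520 in Con and 54610 to 58380 in A10-FMT, and of 11 such markers 2 were higher in A10-FMT (Apoa1 and Cyp2e1). Con replicate 3 stood apart by its values. For 98.0% of the 148 genes that differed at least 2-fold between Con replicates 1 and 2, replicate 3 lay between them, and a weighted mean of 0.54 parts of the first and 0.46 parts of the second came within a median absolute log2 difference of 0.0665 of it. AOS replicate 3 stood apart in the same manner (96.5% of 142 genes, 0.083), while for the 12 livers outside Con and AOS the difference was 0.341 to 0.59. The results are therefore also given without Con and AOS replicates 3. Con replicates 1 and 3 had high transcripts of acute phase genes, and an alternative without both was added after the data were seen. It leaves a single Con liver, which is then assumed to vary as livers of the other groups do. A10-FMT replicate 1 stood apart by genes of fat cells, with a summed RPKM of 9 such markers of 64.85 against 16.58 and 14.69 in the other A10-FMT livers and 12.58 to 13.33 in Con. Adipoq and Cfd, which encode secreted proteins of fat cells, were at 4.42 and 22.05 in that liver and at most at 0.39 and 1.34 in the other 5. B cell and plasma cell markers summed to 10.95 in it and to 5.24 and 2.17 in the other A10-FMT livers, with 2.35 to 2.5 in Con. The part of these cells in the results was not tested, and named genes that lost their call without this liver are given with that value. The labels give 3 samples a group and do not say more of how they were drawn. The p-values of single genes rest on the spread between samples, as 1 value a gene pooled over all 6 groups. A gene that varies more in Con than in the other groups thus has an SE that understates its spread in Con.

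The liver turns dietary fat into energy, stored triglyceride and lipoproteins, makes and exports cholesterol and bile acids, and releases acute phase proteins when cytokines signal inflammation. Many of these genes are read out in a daily cycle. In the molecular clock BMAL1 with CLOCK or NPAS2 drives its own repressors, the PER and CRY proteins and REV-ERBα and β, and through DBP, TEF and HLF a large set of metabolic genes, so that genes of the BMAL1 phase and of the repressor phase peak at opposite times of day.

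Between A10-FMT and Con livers, 1261 of the 10507 genes changed (12.0%) at an adjusted p under 0.05 by limma, 787 of them higher (7.49%) and 474 lower (4.51%) in A10-FMT. Most differences were small. The median absolute log2 difference of the changed genes was 0.509, 782 were under 1.5-fold, 170 were at least 2-fold (1.62%) and 39 were at least 4-fold, 13 of these higher and 26 lower. At the cut-offs of the study (FDR 0.001 and a 2-fold change), 62 genes remained (0.590%), 26 higher and 36 lower. The RPKM of the groups did not overlap for 2986 genes (28.4%), 1708 higher (16.3%) and 1278 lower (12.2%), among them 1224 of the 1261 changed genes. With Con and AOS replicates 3 left out, 552 genes changed, and 549 of these were among the 1261 with the same direction. The number was 670 without Con replicate 1, 678 without Con replicate 3, 738 when A10-FMT replicate 1 was left out and 709 for replicate 2. Without Con replicates 1 and 3 it was 159, of which 66 were higher and 93 lower.

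The distance between livers was taken as the root mean square of their log2 differences over the 10507 genes. A10-FMT and Con livers were 0.432 apart on average (9 pairs, 0.334 to 0.507), against 0.286 within these groups. The difference of 0.146 gave p = 0.1 by an exact permutation test over 20 label orders, the share of orders with a difference at least as large. It is the smallest p that 3 livers against 3 can give here. The pairs within Con include replicate 3, which lay near a weighted mean of the others. Without Con replicate 3 the difference was 0.122. From the Con livers, the A10-FMT livers stood at 0.459, 0.448 and 0.389, the HFD livers at 0.372, 0.334 and 0.351, the Con-FMT livers at 0.381, 0.393 and 0.374, and the HFD+AOS livers at 0.439, 0.433 and 0.436. The regular-diet AOS livers stood at 0.348, 0.315 and 0.309, which overlapped the HFD livers. Each A10-FMT liver was thus farther from Con than any HFD liver, the third A10-FMT liver fell among the Con-FMT livers, and the HFD+AOS livers lay within the range of A10-FMT. These distances share the Con livers, and no test was made between them. The A10-FMT livers were 0.394 from HFD livers, 0.342 from Con-FMT livers, 0.313 from HFD+AOS livers and 0.302 from each other.

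**Figure D1:**
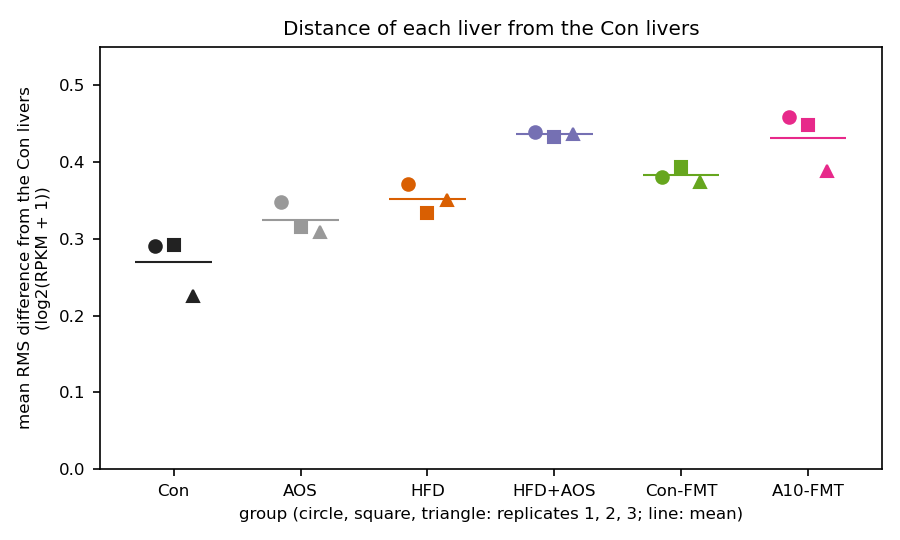
Distance of each liver from the Con livers (root mean square of log2(RPKM + 1) differences over the 10507 genes tested, y axis) by group (x axis), each symbol being 1 liver and each line a group mean. The A10-FMT livers lie at 0.389 to 0.459 the HFD livers at 0.334 to 0.372 and the HFD+AOS livers at 0.433 to 0.439.

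For comparison, 40 genes changed between HFD and Con (0.381%), 31 higher (0.295%) and 9 lower (0.0857%). Between Con-FMT and Con it was 538 (5.12%), 395 higher (3.76%) and 143 lower (1.36%). Directly against HFD, A10-FMT livers had 693 changed genes (6.60%), 275 higher (2.62%) and 418 lower (3.98%). Against Con-FMT they had 177 (1.68%), 48 higher (0.457%) and 129 lower (1.23%). Each of these comparisons shares livers with A10-FMT against Con, so their values are set side by side without a count of common genes.

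Of the 33 pathway lists, both clock lists had the largest shares of changed members. Counts of list members against Con, here and below, stand beside 7.49% higher and 4.51% lower among all genes tested. Of 7 tested genes of the BMAL1 phase, 5 were lower in A10-FMT and 0 higher, with a median log2 difference of -1.20. Of 16 repressors and output genes of the opposite phase, 14 were higher and 0 lower, with a median of 1.70, where all genes tested had a median of 0.0125. These 16 genes are 0.152% of the genes tested and held 6.14% of the summed squared difference. Leaving out the third Con and AOS livers gave 5 lower and 12 higher members, and leaving out Con replicates 1 and 3 gave 4 lower and 8 higher.

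Promoters of clock genes that rose or fell are shown for the motifs that clock proteins are known to bind, marked in capitals. The sequences are from RefSeq (GRCm38.p6), 250 bases before to 50 after a start of the gene, 5′ to 3′ on its strand. Per1, Tef and Arntl have 2 promoters each in the table, and the one that holds the motif is shown. The E-box CACGTG, bound by BMAL1 with its partners, lay in Ciart (chr3:95882179-95882478, minus strand), Per1 (chr11:69098699-69098998, plus strand) and Tef (chr15:81802423-81802722, plus strand). The D-box TTATGTAA, bound by DBP, TEF, HLF and NFIL3, lay in Per3 (chr4:151044616-151044915, minus strand). The site TAGGTCA, bound by ROR and REV-ERB receptors, lay in Arntl (chr7:113207261-113207560, plus strand) and, as TGACCTA on the opposite strand, in Nfil3 (chr13:52980990-52981289, minus strand).
Ciart: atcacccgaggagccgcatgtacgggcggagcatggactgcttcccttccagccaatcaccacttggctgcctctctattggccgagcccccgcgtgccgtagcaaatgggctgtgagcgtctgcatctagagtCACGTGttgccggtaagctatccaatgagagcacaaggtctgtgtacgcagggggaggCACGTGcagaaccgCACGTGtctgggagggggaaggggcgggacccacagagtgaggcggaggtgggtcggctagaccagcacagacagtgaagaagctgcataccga
Per1: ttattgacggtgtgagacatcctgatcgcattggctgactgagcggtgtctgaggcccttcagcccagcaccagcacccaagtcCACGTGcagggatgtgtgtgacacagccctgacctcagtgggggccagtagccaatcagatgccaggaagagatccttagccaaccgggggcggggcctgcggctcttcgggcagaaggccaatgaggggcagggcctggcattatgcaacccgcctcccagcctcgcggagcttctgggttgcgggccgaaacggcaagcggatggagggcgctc
Tef: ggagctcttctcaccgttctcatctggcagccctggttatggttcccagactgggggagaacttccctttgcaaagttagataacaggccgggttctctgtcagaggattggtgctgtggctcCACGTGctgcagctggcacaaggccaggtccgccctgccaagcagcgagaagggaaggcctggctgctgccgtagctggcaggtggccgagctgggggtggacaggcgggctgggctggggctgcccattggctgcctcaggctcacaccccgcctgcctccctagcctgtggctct
Per3: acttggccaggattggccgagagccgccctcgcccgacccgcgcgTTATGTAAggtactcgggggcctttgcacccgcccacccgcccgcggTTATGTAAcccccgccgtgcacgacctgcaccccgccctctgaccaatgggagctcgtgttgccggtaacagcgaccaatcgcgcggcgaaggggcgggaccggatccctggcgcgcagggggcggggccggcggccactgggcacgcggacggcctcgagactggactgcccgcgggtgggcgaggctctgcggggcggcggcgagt
Arntl: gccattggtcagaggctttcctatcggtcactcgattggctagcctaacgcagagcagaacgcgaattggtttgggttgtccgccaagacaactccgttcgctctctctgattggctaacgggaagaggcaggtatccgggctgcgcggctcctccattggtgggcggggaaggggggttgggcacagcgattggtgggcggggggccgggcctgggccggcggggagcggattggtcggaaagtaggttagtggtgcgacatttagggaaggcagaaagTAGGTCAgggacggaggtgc
Nfil3: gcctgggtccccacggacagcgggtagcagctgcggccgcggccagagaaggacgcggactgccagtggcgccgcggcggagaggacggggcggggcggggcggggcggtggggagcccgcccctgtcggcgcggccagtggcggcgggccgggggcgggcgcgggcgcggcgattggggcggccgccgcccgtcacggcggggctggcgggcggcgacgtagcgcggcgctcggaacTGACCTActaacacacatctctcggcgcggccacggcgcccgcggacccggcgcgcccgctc
Both strands were searched. The E-box was in 7.15%, the D-box in 0.938% and TAGGTCA in 2.61% of all 32851 promoters of this length in the RefSeq table. Counted by gene, with any of its promoters, an E-box was in 5 of the 13 repressor and output genes matched to a promoter and in 1 of the 6 matched genes of the BMAL1 phase (Cry1), against 12.0% of the 8374 matched genes among those tested. TAGGTCA was in 2 of the 6 genes of the BMAL1 phase, against 2.53%. A match is a description of these letters and not of binding.

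Arntl, which encodes BMAL1, had an RPKM of 10.1, 12.9 and 12.2 in Con replicates 1 to 3 and of 0.79, 0.69 and 2.41 in A10-FMT replicates 1 to 3. All A10-FMT values lay below all Con values. The log2(RPKM + 1) difference was -2.54 ± 0.22 (SE, n = 3 livers a group, adjusted p = 9.85e-06, limma). In HFD livers Arntl was at 12.1, 14.6 and 13.2, in Con-FMT livers at 8.02, 12.97 and 6.94 and in HFD+AOS livers at 1.18, 1.23 and 1.32. The HFD livers overlapped the Con livers for Arntl, and the low values were those of A10-FMT and HFD+AOS.

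Npas2, a partner of BMAL1, was at 2.9, 3.48 and 2.95 in Con and at 0.02, 0.03 and 0.29 in A10-FMT (log2 difference -1.89 ± 0.15, adjusted p = 4.33e-06). Clock, the other partner, was at 4.94, 6 and 5.68 in Con and at 2.4, 2.15 and 3.65 in A10-FMT (-0.83 ± 0.14, adjusted p = 0.00123). The groups did not overlap for either gene. Nfil3, a repressor that competes with DBP for the D-box and peaks with Arntl, fell from 22.7 ± 1.31 to 9.32 ± 0.482 RPKM (mean ± SD, n = 3, adjusted p = 0.000169). Cry1, the late repressor of the clock, fell by 1.37 on the log2 scale (adjusted p = 0.00651), and without Con replicates 1 and 3 its adjusted p was 0.0604. Rora, which encodes an activator at TAGGTCA sites, overlapped between the groups (adjusted p = 0.980).

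Dbp, the output factor that binds the D-box, showed the largest rise among the changed genes without overlap. It was at 0.66, 0.58 and 0.68 in Con and at 127, 70.8 and 49.2 in A10-FMT, 129 times the Con mean (log2(RPKM + 1) difference 5.56 ± 0.51, adjusted p = 1.13e-05). HFD livers had 0.56, 0.27 and 0.59, Con-FMT livers 16.5, 3.24 and 22.6 and HFD+AOS livers 112, 88.9 and 97.8. Con and HFD livers were thus below 1 in all 6 cases, the Con-FMT livers lay between, and A10-FMT and HFD+AOS livers were at 49.2 or above.

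Tef, a sister factor of Dbp, rose from 6.71 ± 1.63 to 44.1 ± 11.5 RPKM (adjusted p = 3.08e-05). Ciart, a repressor of the BMAL1 complex with 3 E-boxes in the window above, was at 0.35, 0.36 and 0.45 in Con and at 14.6, 13.7 and 8.99 in A10-FMT (log2 difference 3.25 ± 0.20, adjusted p = 1.77e-07). Its A10-FMT values did not overlap those of any Con-FMT, HFD or Con liver. The HFD+AOS livers had Ciart at 7.21, 9.82 and 10.7, which overlapped A10-FMT. Nr1d2, which encodes REV-ERBβ, rose by a log2 of 2.46 ± 0.22 (adjusted p = 1.13e-05).

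Nr1d1, which encodes REV-ERBα, varied more between livers. It was at 1.22, 3.68 and 2.72 in Con and at 62.5, 15.3 and 35.9 in A10-FMT (3.32 ± 0.62, adjusted p = 0.00266), and at 21.7, 7.35 and 2.12 in HFD. The regular-diet AOS livers, at 30.7, 10.0 and 16.9, overlapped A10-FMT. The A10-FMT and HFD values overlapped, and without Con replicates 1 and 3 the adjusted p against Con was 0.165. The period genes also rose, Per3 by a log2 of 2.50 ± 0.23 (adjusted p = 1.21e-05), Per1 by 1.68 ± 0.39 (0.0105) and Per2 by 1.11 ± 0.31 (0.0291). Per2 was lost without Con and AOS replicates 3, at an adjusted p of 0.0867, and without A10-FMT replicate 2, Con replicate 1 or Con replicate 3 (0.138, 0.138 and 0.0647). Per1 had an adjusted p of 0.0613 without Con replicate 1. Of the 16 genes, Bhlhe40 and Tsc22d3 did not pass, at adjusted p of 0.207 and 0.765.

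**Figure D2:**
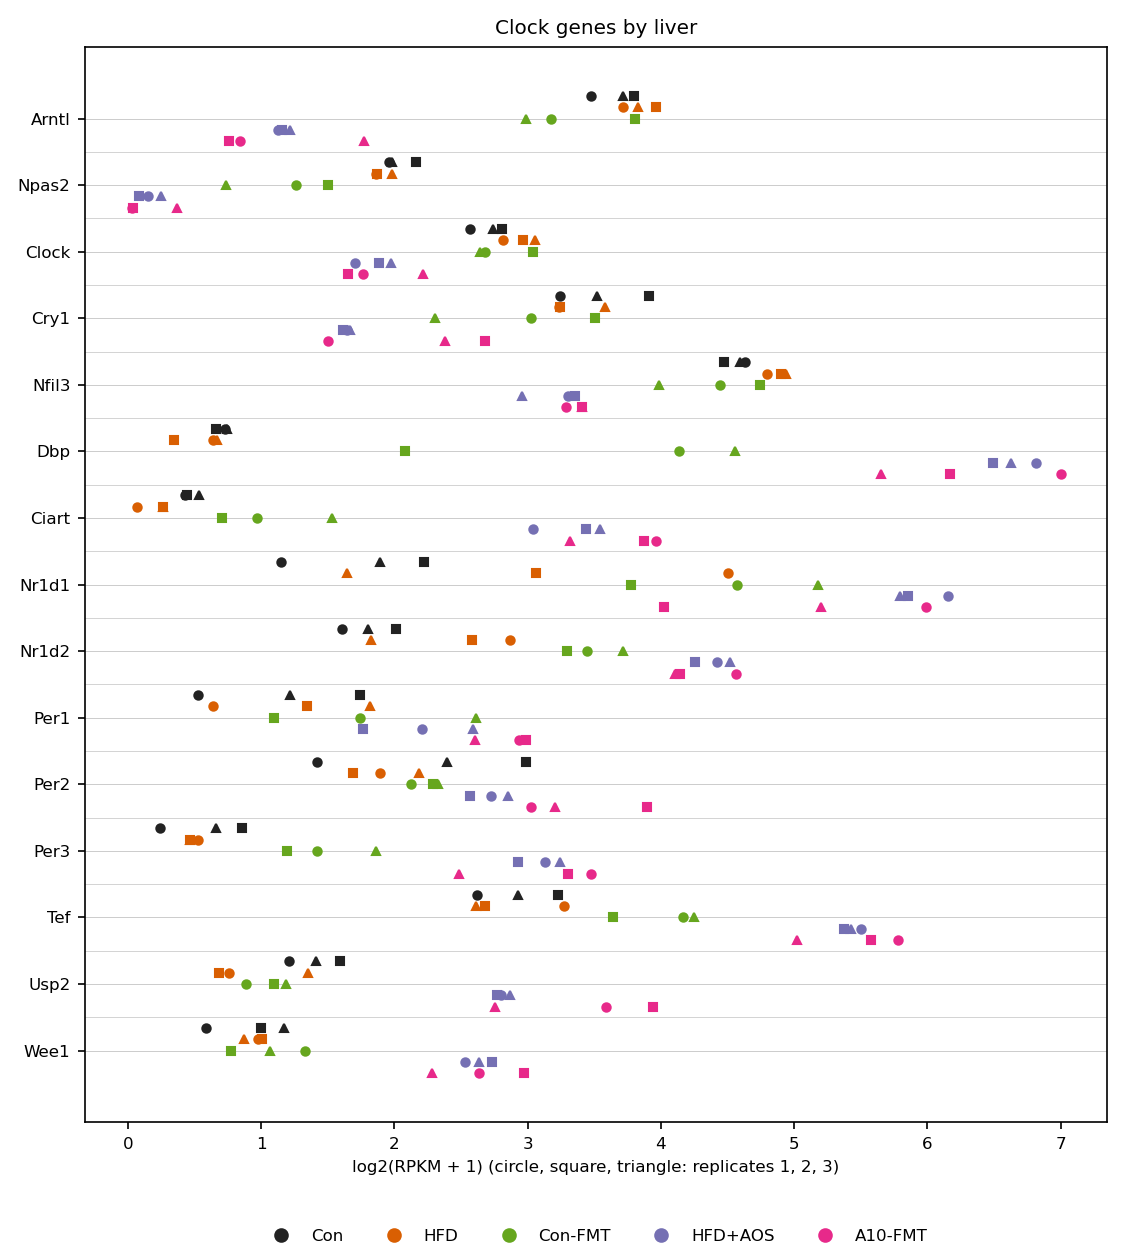
Level of 15 clock genes (rows) as log2(RPKM + 1) (x axis) in each liver, with a color for each of 5 groups and a symbol for each replicate. Arntl and Npas2 are lowest and Dbp, Ciart and Per3 highest in the A10-FMT and HFD+AOS livers, with Con and HFD livers at the other end.

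Genes outside the core clock moved by similar sizes. Cdkn1a, which encodes the cell cycle inhibitor p21, was at 11.3, 11.9 and 12.1 in Con and at 0.41, 0.27 and 2.18 in A10-FMT (-2.84 ± 0.29, adjusted p = 2.79e-05), with HFD livers at 11.99, 11.8 and 16.5. Gys2, the glycogen synthase of liver, rose from 33.7 ± 7.37 to 93.3 ± 20.5 RPKM (adjusted p = 3.9e-05). Rgs16, a regulator of G protein signalling, was at 0.52, 1.91 and 1.59 in Con and at 50.2, 9.58 and 10.8 in A10-FMT (adjusted p = 0.00605), and its first A10-FMT liver was far above the others. The regular-diet AOS livers had Rgs16 at 27.8, 2.11 and 11.6, which overlapped A10-FMT. Without Con replicates 1 and 3 the adjusted p of Rgs16 was 0.216, and those of Cdkn1a and Gys2 were 0.00850 and 0.0116.

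The comparison of HFD+AOS with AOS shares no liver with that of A10-FMT with Con and also sets a high-fat group against a regular-diet group. It had 572 changed genes (5.44%), 264 higher (2.51%) and 308 lower (2.93%). In both comparisons 361 genes changed in the same direction, which are 28.6% of the 1261 and 63.1% of the 572, and 0 changed in opposite directions. The sign was the same for 94.2% of the 1261 genes and for 69.3% of all genes tested. Of the clock lists, 5 of the 7 BMAL1-phase genes were lower and 11 of the 16 repressor and output genes higher in HFD+AOS than in AOS, with median log2 differences of -1.32 and 1.15. Between A10-FMT and HFD, which shares its A10-FMT livers with the main comparison, 5 were lower and 15 higher.

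The changed genes of fatty acid oxidation and ketone body synthesis were all higher in the A10-FMT livers. Of 50 tested, 24 were higher and 0 lower, with a median log2 difference of 0.41. With Con and AOS replicates 3 left out 17 were higher, and without Con replicates 1 and 3 it was 5. Against Con, 5 of the 50 were higher in HFD (median 0.30) and 28 in Con-FMT (median 0.45). Over all genes tested 0.295% were higher in HFD and 3.76% in Con-FMT. Against HFD, 3 of the 50 were higher and 1 lower in A10-FMT (median 0.13), where 2.62% of all genes tested were higher and 3.98% lower. These comparisons share livers and are given side by side.

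Slc27a2, a transporter and acyl-CoA synthetase for very long chain fatty acids, was at 237, 248 and 248 in Con and at 464, 497 and 424 in A10-FMT (0.91 ± 0.11, adjusted p = 0.000100). Its HFD livers were at 436, 319.6 and 370.0, between these groups but for 1 liver that overlapped A10-FMT. Cpt1a, the carnitine transferase that admits fatty acids to mitochondria, was at 39.9, 42.9 and 40.5 in Con and at 74.1, 84.4 and 81.8 in A10-FMT (0.94 ± 0.13, adjusted p = 0.000220).

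Hadhb, a subunit of the trifunctional protein of β-oxidation, was at 58.7, 75.5 and 65.7 in Con, 99.6, 97.9 and 98.2 in HFD and 102, 99.4 and 97.96 in A10-FMT. The HFD and A10-FMT livers overlapped, above all Con livers (A10-FMT against Con 0.58 ± 0.08, adjusted p = 0.000423, HFD against Con adjusted p = 0.0175). Bdh1, which interconverts the ketone bodies, rose from 61.5 ± 11.04 to 113 ± 4.65 RPKM (adjusted p = 8.24e-05). Eci2, an isomerase of unsaturated fatty acids, rose by a log2 of 0.79 ± 0.09 (adjusted p = 8.24e-05).

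Ppara, the fatty acid receptor that drives this programme, rose from 16.2 ± 3.83 to 31.4 ± 1.68 RPKM (adjusted p = 0.000673). Of 23 tested genes of the Cyp4a family and other PPARα targets, 5 were higher and 2 lower in A10-FMT, with a median of 0.35. Leaving out A10-FMT replicate 2 or Con replicate 1 gave 3 higher and 2 lower. Slc25a47, a mitochondrial carrier of liver, was at 77.02, 74.2 and 82.8 in Con and at 205, 183 and 190.3 in A10-FMT (1.29 ± 0.15, adjusted p = 7.04e-05). Angptl4, an inhibitor of lipoprotein lipase, rose by 1.06 ± 0.14 (adjusted p = 0.000206). The regular-diet AOS livers had Angptl4 at 45.1, 46.1 and 45.3, within the A10-FMT range of 38.5 to 51.1. Fabp2, a fatty acid binding protein, rose by 0.87 ± 0.17 (adjusted p = 0.00362).

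Other PPARα targets did not pass the test against Con. Fgf21, a hormone of the fasted liver, was at 0.98, 0.78 and 1 in Con, 5.64, 2.46 and 5.15 in HFD and 1.08, 1.15 and 1.37 in A10-FMT. The HFD livers were above all livers of both other groups, the A10-FMT livers were slightly above the Con livers without overlap, and A10-FMT differed from HFD by -1.25 ± 0.25 (adjusted p = 0.00809) while the difference from Con was 0.20 ± 0.25 (adjusted p = 0.675). In Con-FMT livers Fgf21 was at 5.11, 7.82 and 3.22.

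Cyp4a10 and Cyp4a14, which hydroxylate fatty acids at their end, had the same order. Cyp4a10 was at 1.29, 2.76 and 2.77 in Con, 36.7, 15.4 and 11.6 in HFD and 1.19, 3.48 and 4.02 in A10-FMT (A10-FMT against HFD -2.44 ± 0.70, adjusted p = 0.0474). Cyp4a14 was at 0.2, 0.57 and 0.55 in Con, 12.7, 10.6 and 17.1 in HFD and 0.36, 0.36 and 3.21 in A10-FMT (A10-FMT against HFD -2.84 ± 0.77, adjusted p = 0.0384). For both the A10-FMT and Con livers overlapped, and the SE of the difference from Con, 0.70 and 0.77, leaves room for a change of several fold. The alignment settings given for the study report all hits of a read. Near-identical members of the Cyp, Ugt, Gst, Raet1 and Saa families could therefore have shared reads, and the strandedness is not given.

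Genes of fatty acid synthesis moved in both directions. Of 30 tested genes of synthesis and desaturation, 2 were higher and 5 lower (median -0.17), against 7.49% and 4.51% of all genes tested. The number lower was 3 without A10-FMT replicate 1 or 2 or any Con replicate, and 11 without A10-FMT replicate 3. Elovl3, an elongase for very long chain fatty acids, was at 209, 228 and 239 in Con and at 20.96, 16.8 and 29.1 in A10-FMT (-3.31 ± 0.29, adjusted p = 9.85e-06), with HFD at 250.2, 174 and 183 and HFD+AOS at 25.2, 26.5 and 45.3. The HFD livers overlapped the Con livers, the HFD+AOS livers overlapped the A10-FMT livers, and the A10-FMT mean was 0.0989 of the Con mean.

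Scd1, the desaturase that makes oleate, was at 676, 815 and 740.0 in Con and at 45.5, 57.5 and 216 in A10-FMT (-3.15 ± 0.94, adjusted p = 0.0404). Its HFD livers were at 19.3, 177 and 215, which overlapped A10-FMT and lay below Con. The adjusted p of Scd1 against Con was 0.131 without Con and AOS replicates 3, and 0.0811 to 0.143 when A10-FMT replicate 1 or 2 or any Con replicate was left out. Acacb, the acetyl-CoA carboxylase whose product restrains CPT1, fell from 13.3 ± 3.41 to 2.56 ± 1.21 RPKM (adjusted p = 0.00815). Elovl1, another elongase, fell from 40.2 ± 7.46 to 19.7 ± 2.57 (adjusted p = 0.00135). Fasn, the fatty acid synthase, overlapped between groups, at 40.5, 72.1 and 57.1 in Con and 13.7, 27.4 and 50.02 in A10-FMT (adjusted p = 0.139). Srebf1, which encodes the regulator of these genes, was higher, at 77.7, 90.4 and 87.6 in A10-FMT against 29.9, 58.3 and 44.4 in Con (0.98 ± 0.20, adjusted p = 0.0053). Without Con replicates 1 and 3 the adjusted p of Srebf1 was 0.307.

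Of 31 genes of triglyceride assembly, lipid droplets and lipolysis, 7 were higher and 2 lower (median 0.07), with 5 and 0 when the third Con and AOS livers were left out. Dgat2, which adds the last fatty acid to a triglyceride, was at 129.7, 149 and 147 in Con and at 234, 275 and 215 in A10-FMT (0.76 ± 0.12, adjusted p = 0.00112), and HFD was at 165, 125 and 151. Lpin2, a phosphatidate phosphatase, rose by 0.94 ± 0.12 (adjusted p = 0.000169), and Hsd17b11, a lipid droplet protein, by 0.83 ± 0.14 (adjusted p = 0.00115). The regular-diet AOS livers had Lpin2 at 20.9, 19.8 and 20.3, which overlapped A10-FMT at 20.1 to 26.4. Mfsd2a, a carrier of lysophosphatidylcholine that carries docosahexaenoic acid, was at 0.89, 2.36 and 1.28 in Con and 7.1, 12.9 and 30.5 in A10-FMT (adjusted p = 0.0148, 0.0711 without Con and AOS replicates 3). Without A10-FMT replicate 3, Con replicate 1 or Con replicate 3 it was 0.0537, 0.0641 and 0.0526. The regular-diet AOS livers had Mfsd2a at 19.98, 1.41 and 8.44, which overlapped A10-FMT.

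**Figure D3:**
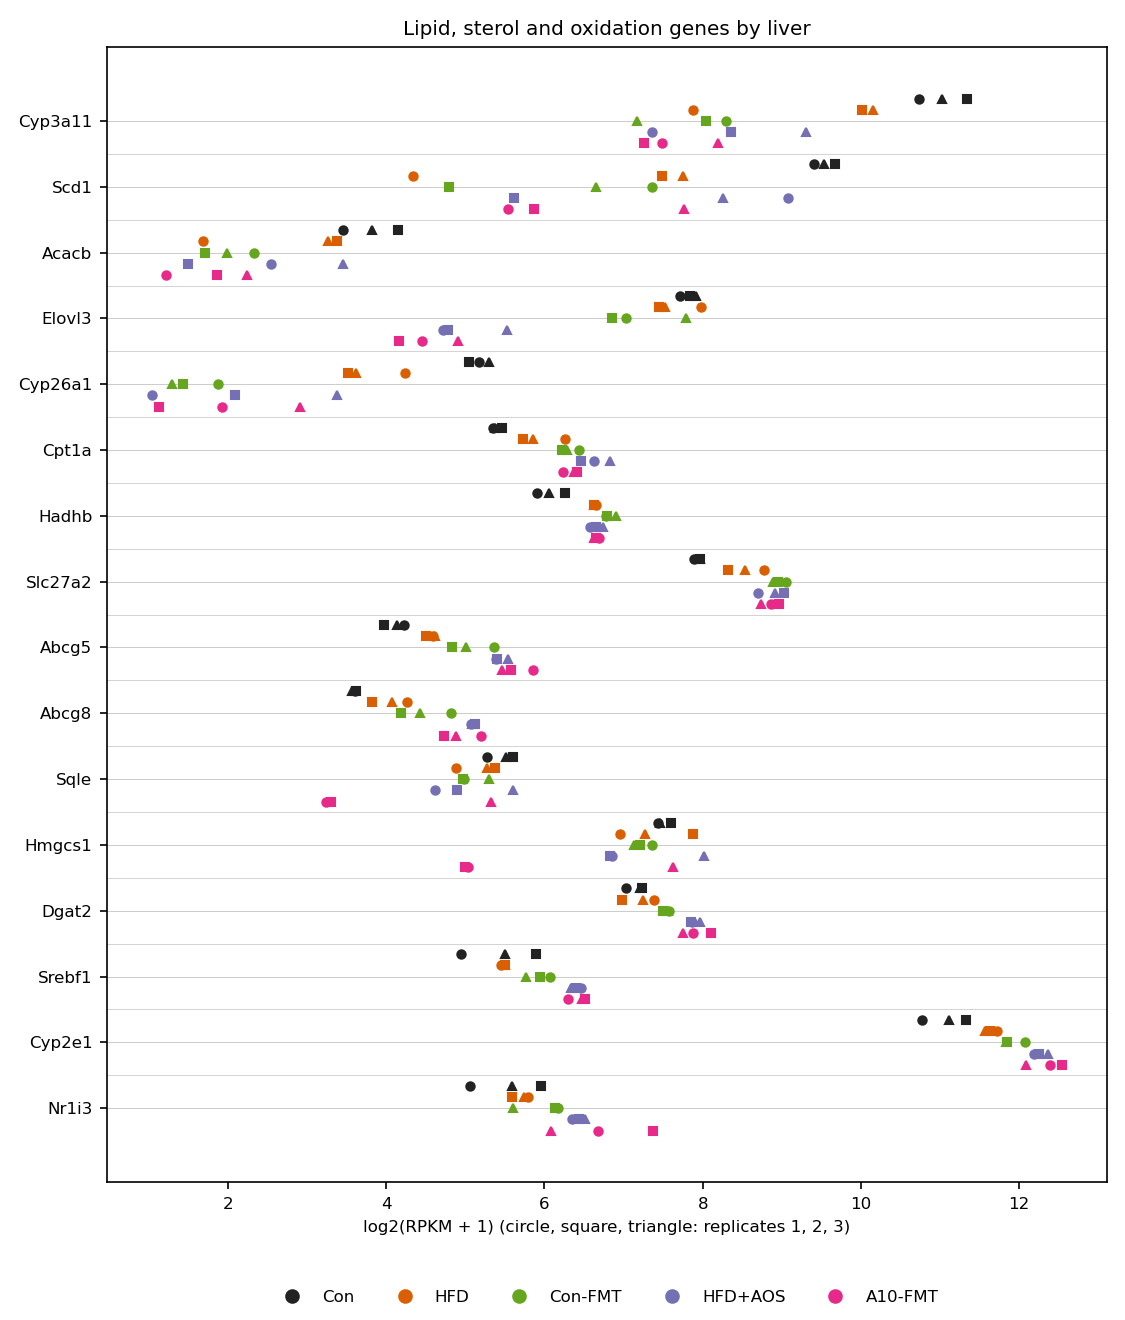
Level of 16 genes of lipid, sterol and xenobiotic metabolism (rows) as log2(RPKM + 1) (x axis) in each liver, with a color for each of 5 groups and a symbol for each replicate. Elovl3 is lowest in A10-FMT and HFD+AOS, which overlap, Scd1 and Cyp3a11 are below Con in the livers of all 4 high-fat groups, and Sqle and Hmgcs1 are low in 2 of the 3 A10-FMT livers.

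The changed genes of sterol synthesis were lower and those of sterol transport higher. Of 28 genes of cholesterol synthesis and SREBP2 targets, 0 were higher and 9 lower, with a median of -0.78. This count depended on single livers. It was 1 without A10-FMT replicate 1, 2 without A10-FMT replicate 2, 21 without A10-FMT replicate 3, 2 without Con replicate 2 and 2 without Con replicate 3, and 0 without Con and AOS replicates 3 (median -0.75). The median log2 level of the list, from its mean over the 6 groups, was -0.92, -0.76 and 0.15 in A10-FMT and 0.03, 0.39 and 0.24 in Con. A10-FMT replicate 3 thus fell inside the Con range.

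Sqle, which oxidises squalene, was at 37.8, 47.6 and 44.5 in Con and at 8.43, 8.83 and 39.2 in A10-FMT (-1.51 ± 0.39, adjusted p = 0.0212, 0.0903 without Con and AOS replicates 3). Hmgcs1, the cytosolic synthase at the head of the pathway, was at 172, 193 and 175 in Con and at 31.7, 30.9 and 196 in A10-FMT (adjusted p = 0.0488, 0.144). For both genes the first and second A10-FMT livers were low. The third lay within the Con range for Sqle and slightly above it for Hmgcs1. Srebf2, which encodes a regulator of the pathway, and Insig1, a partner of its sterol sensor, were lower without overlap, by log2 of -0.62 and -1.0 (adjusted p = 0.00955 and 0.0166). Their adjusted p was 0.0600 and 0.0729 without Con and AOS replicates 3. Without A10-FMT replicate 1 or 2 or Con replicate 2 or 3, Sqle was at 0.106, 0.106, 0.0535 and 0.0677 and Insig1 at 0.0882, 0.0737, 0.0573 and 0.0528, and Srebf2 was at 0.0525 without A10-FMT replicate 1 (adjusted p).

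Of 23 genes of sterol transport and LXR targets, 10 were higher and 0 lower (median 0.35). The number was 5 without A10-FMT replicate 1, 5 without A10-FMT replicate 2, 4 without Con replicate 1, 6 without Con replicate 3, and 4 without Con and AOS replicates 3. Abcg5 and Abcg8 form the transporter that passes cholesterol into bile. Abcg5 was at 17.7, 14.7 and 16.6 in Con, 23.2, 21.6 and 23.5 in HFD and 57, 46.9 and 43.01 in A10-FMT (1.52 ± 0.13 against Con, adjusted p = 9.85e-06). Abcg8 was at 11.2, 11.3 and 10.9 in Con, 18.1, 13.2 and 15.8 in HFD and 35.7, 25.6 and 28.4 in A10-FMT (1.34 ± 0.14, adjusted p = 3.7e-05). Neither gene overlapped between A10-FMT and Con or HFD, and against HFD the adjusted p was 0.000236 and 0.00168. The HFD+AOS livers overlapped A10-FMT for both, with Abcg5 at 40.9, 41.2 and 45.7 and Abcg8 at 32.6, 33.8 and 32.9. The Con-FMT livers overlapped A10-FMT for Abcg8, at 27.2, 17.2 and 20.5. Npc1, which moves cholesterol out of lysosomes, rose by 1.02 ± 0.09 (adjusted p = 1.13e-05). Abcg5, Abcg8 and Npc1 kept adjusted p of 0.00120, 0.0105 and 0.00120 without Con replicates 1 and 3.

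Of 29 genes of bile acid synthesis and transport, 8 were higher and 0 lower (median 0.26), and leaving out the third Con and AOS livers gave 6. Akr1c6, a ketosteroid reductase, rose by 0.78 ± 0.10 (adjusted p = 0.000234). Slco1b2, an uptake carrier of hepatocytes, rose by 0.58 ± 0.08 (adjusted p = 0.000478), and Abcc2, the canalicular exporter of conjugates, by 0.72 ± 0.11 (adjusted p = 0.000544). Nr1h4, which encodes the bile acid receptor FXR, was at 54.4, 65.5 and 58.6 in Con and at 88.7, 96.3 and 72.4 in A10-FMT (0.51 ± 0.10, adjusted p = 0.00490). Cyp7a1, the rate-limiting enzyme of bile acid synthesis, was at 30.7, 24.3 and 27.5 in Con and at 31.5, 87.6 and 20.5 in A10-FMT, with overlap and 1 high A10-FMT liver (adjusted p = 0.644). Cyp8b1, which makes cholic acid, overlapped too (adjusted p = 0.763).

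Of 36 retinoid genes, 8 were higher and 4 lower (median 0.15), with 4 and 3 without A10-FMT replicate 1, 3 and 4 without Con replicate 1, and 5 and 3 without Con replicate 3. Cyp26a1, which degrades retinoic acid and is induced by it, was at 34.97, 32.1 and 38.4 in Con, 17.9, 10.5 and 11.2 in HFD and 2.8, 1.19 and 6.53 in A10-FMT (-3.18 ± 0.46 against Con, adjusted p = 0.000458). The HFD livers lay between the other groups without overlap. Aldh1a7, an aldehyde dehydrogenase, fell by 2.10 on the log2 scale (adjusted p = 0.000538). Rdh9, a retinol dehydrogenase, rose by 1.56 ± 0.23 (adjusted p = 0.000556), Rbp4, the plasma carrier of retinol, by 0.59 ± 0.11 (adjusted p = 0.00222), and Retsat, retinol saturase, by 0.77 ± 0.19 (adjusted p = 0.0155). Retsat had an adjusted p of 0.0586 without Con and AOS replicates 3, 0.0573 without A10-FMT replicate 2 and 0.0818 without Con replicate 1.

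Of 41 genes of the Cyp2 and Cyp3 families and xenobiotic receptors, 7 were higher and 5 lower (median -0.01). These counts fell to 2 and 2 without A10-FMT replicate 2 and were 2 and 3 without Con replicate 1, 3 and 3 without Con replicate 3, 4 and 3 without A10-FMT replicate 1 or 3, and 9 and 3 without Con replicate 2. Cyp3a11, the main inducible drug oxidase of mouse liver, was at 1709.6, 2585 and 2082 in Con, 235, 1033 and 1134 in HFD and 179, 152 and 292 in A10-FMT (-3.39 ± 0.53 against Con, adjusted p = 0.000831). All A10-FMT livers were below all Con livers, and the first HFD liver was in the range of A10-FMT. Cyp2e1, the oxidase of ethanol and ketones, was at 1755, 2572 and 2221 in Con and at 5354, 5937 and 4343 in A10-FMT (1.26 ± 0.14, adjusted p = 4.36e-05). Nr1i3, which encodes the xenobiotic receptor CAR, was at 32.3, 61.1 and 47.3 in Con and at 101, 164 and 66.8 in A10-FMT (adjusted p = 0.00854, 0.0517 without Con replicate 1). Gstp3, a glutathione transferase, was at 19.3, 48.3 and 38.01 in Con and 1138, 633 and 324 in A10-FMT (adjusted p = 0.0436, 0.123 without Con and AOS replicates 3, and 0.0630 to 0.143 when A10-FMT replicate 1 or 2 or any Con replicate was left out). In the regular-diet AOS livers Gstp3 was at 54.7, 1054 and 611, which overlapped A10-FMT. Raet1d, a stress ligand of NK cell receptors, was at 16.7, 31.1 and 22.99 in Con and at 1.15, 0.97 and 3.12 in A10-FMT (-3.20 ± 0.46, adjusted p = 0.000419).

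The 5 largest falls among changed genes without overlap were all acute phase genes, and they were smaller without Con replicates 1 and 3. Of 27 tested, 2 were higher and 13 lower in A10-FMT, with a median of -0.76. They are 0.257% of the genes tested and held 10.2% of the summed squared difference. The median log2 level of the list, from its mean over the 6 groups, was 0.70, -0.02 and 0.48 in Con and -0.17, -0.29 and -0.28 in A10-FMT. Con replicates 1 and 3 were high, and replicate 2 was closer to the A10-FMT livers. As described above, Con replicate 3 lay near a weighted mean of Con replicates 1 and 2. Con replicates 1 and 3 may therefore not be separate observations of high values. Without these 2 Con livers the median was -0.08, and without Con replicate 2 the number lower was 21. Kupffer cell and macrophage markers had 0 of 13 changed in either direction, but 1 of the 13 had a positive difference and the median was -0.38. The groups did not overlap for 5 of them, all lower, where 12.2% of all genes tested were lower without overlap. In the fit of the 2 groups alone 3 were lower, and without Con replicates 1 and 3 the median was -0.12. Their summed RPKM was 151.2 to 227.3 in Con and 121.0 to 163.6 in A10-FMT. Of neutrophil markers 0 of 2 changed. In bulk liver, fewer cells of a type and less RNA per cell cannot be told apart.

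Saa2, a serum amyloid, was at 7018, 300.04 and 3826 in Con and at 27.2, 37.9 and 22.3 in A10-FMT (-6.09 ± 0.84, adjusted p = 0.000282). Its Con values were widely spread, and even the lowest, in replicate 2, was above all A10-FMT values. The SE is pooled over all groups and understates this spread in Con, and so does the adjusted p. HFD livers were at 29.1, 77.97 and 24.5, so that the high values were those of Con. Lcn2, an iron-siderophore binding protein, was at 1043, 47.5 and 612 in Con and at 8.1, 13.1 and 8.07 in A10-FMT (-4.90 ± 0.90, adjusted p = 0.00249). Orm2, an acid glycoprotein, was at 762, 39.8 and 441 in Con and at 9.26, 11.4 and 7.95 in A10-FMT (adjusted p = 0.00202). Against the single remaining Con liver, replicate 2, the log2 difference was -3.35 for Saa2, -1.50 for Saa3, -2.04 for Saa1, -2.21 for Lcn2 and -1.96 for Orm2. That fit takes its spread from the other groups, where these genes vary less than in Con, so no p-value is given.

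Fgg, the γ chain of fibrinogen, was less spread, at 3951, 2770.4 and 3395 in Con, 2641, 3438 and 2551 in HFD and 1882, 1461 and 1994 in A10-FMT (-0.92 ± 0.15 against Con, adjusted p = 0.00116). All A10-FMT livers were below all Con and HFD livers, and without Con replicates 1 and 3 the adjusted p was 0.136. Mt1 and Mt2, the metallothioneins, were high in the same 2 Con livers. Mt1 was at 736, 58.2 and 493 in Con and 70.95, 32.3 and 13.9 in A10-FMT with overlap (-3.08 ± 0.79, adjusted p = 0.0189). Without both of these Con livers its log2 difference was -0.85. Without A10-FMT replicate 2 or 3 or Con replicate 1 or 3 alone, the adjusted p of Mt1 was 0.0564, 0.0651, 0.0997 and 0.0860. Hamp2, a hepcidin-like gene of iron handling, went the other way, at 6.5, 2.96 and 4.32 in Con, 42.6, 90.5 and 33.7 in HFD and 34.3, 31.3 and 55.7 in A10-FMT (2.89 ± 0.52, adjusted p = 0.00214). The HFD and A10-FMT livers overlapped, above all Con livers. The regular-diet AOS livers, at 67.9, 31.8 and 44.7, also overlapped A10-FMT for Hamp2. Hamp, hepcidin itself, did not overlap between A10-FMT and Con, at 5730 ± 1066 and 3273 ± 1152 RPKM, with an adjusted p of 0.226.

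**Figure D4:**
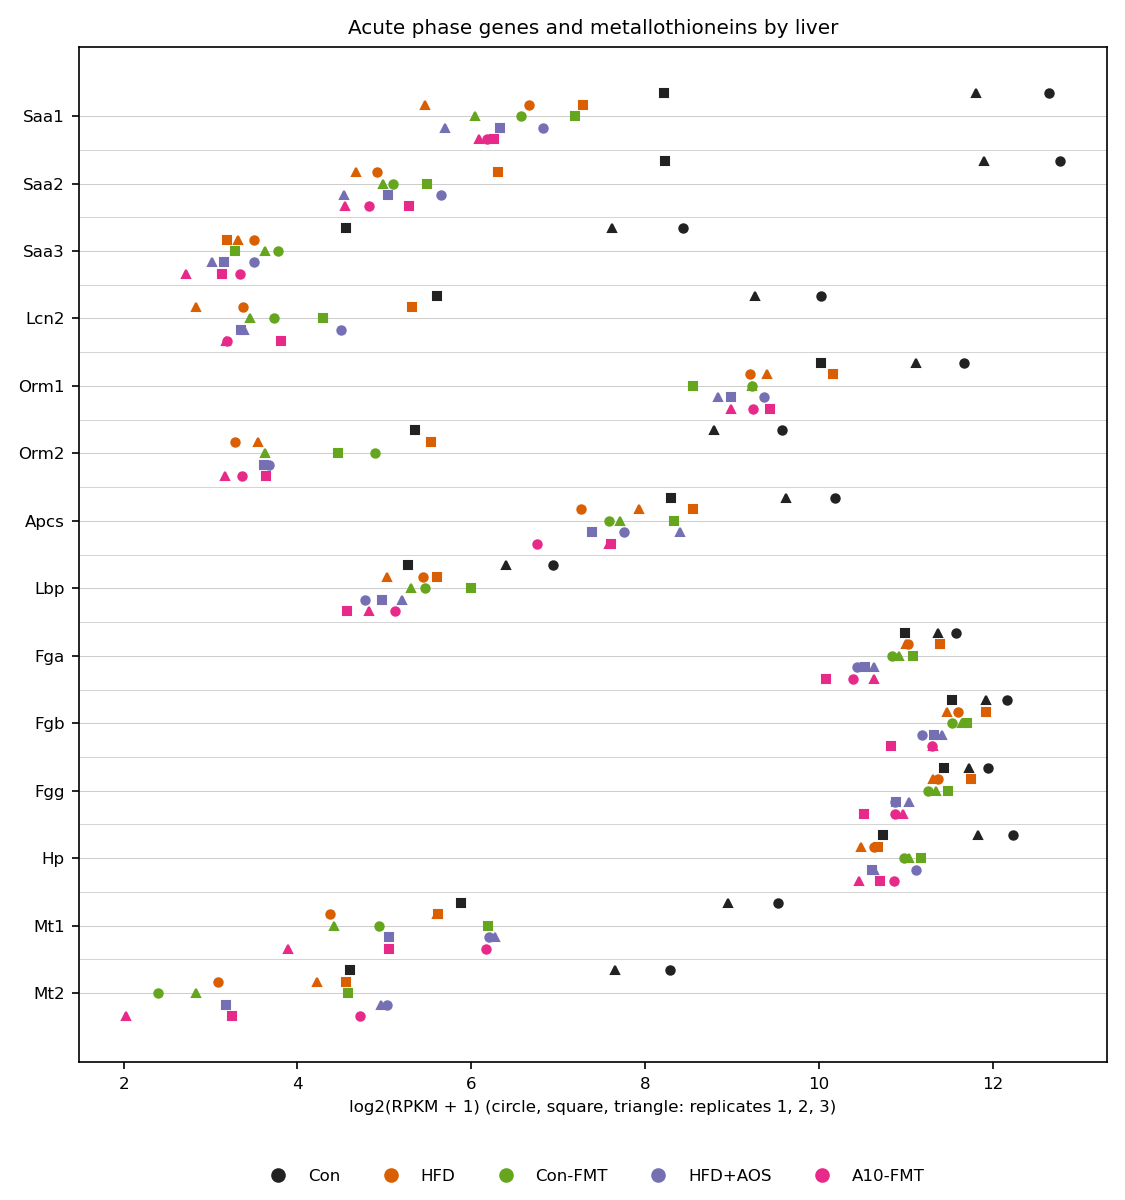
Level of 14 acute phase and metallothionein genes (rows) as log2(RPKM + 1) (x axis) in each liver, with a color for each of 5 groups and a symbol for each replicate. Con replicates 1 and 3 are the highest livers for the serum amyloids, Lcn2 and Orm2, and Con replicate 2 lies nearer to the A10-FMT livers.

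Genes of glucose and glycogen metabolism had 7 higher and 3 lower of 36 (median 0.09), against 7.49% and 4.51% of all genes tested. The number lower was 1 without A10-FMT replicate 1, without Con replicate 2 or without Con replicate 3. Pck1, the rate-limiting enzyme of gluconeogenesis, was at 287, 342 and 302 in Con and at 898, 846 and 757 in A10-FMT (1.42 ± 0.23, adjusted p = 0.00117), and HFD livers spread from 341 to 714. Ugp2, which makes UDP-glucose for glycogen, rose by 0.87 ± 0.10 (adjusted p = 0.000113). Of 25 glucocorticoid receptor genes and targets 6 were higher and 3 lower (median 0.38), the number lower being 1 without A10-FMT replicate 2 or 3 or Con replicate 1 or 3. Klf15, a glucocorticoid target that promotes amino acid breakdown, rose by 0.85 ± 0.16 (adjusted p = 0.00248).

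Among genes of the endoplasmic reticulum stress response, more were lower than higher. Of 29 tested, 1 was higher and 7 lower, with a median of -0.33, and the number lower was 2 without A10-FMT replicate 1, 1 without A10-FMT replicate 2, 11 without A10-FMT replicate 3, 4 without Con replicate 2, and 1 without Con replicate 1 or 3. Sdf2l1, a chaperone cofactor, was at 38.9, 39.7 and 41.5 in Con and at 9.88, 8.49 and 12.4 in A10-FMT (-1.88 ± 0.38, adjusted p = 0.00469), and Calr, calreticulin, fell by 0.67 on the log2 scale (adjusted p = 0.0199). Without A10-FMT replicate 1 or 2 or Con replicate 1 or 3, the adjusted p of Calr was 0.0768, 0.0737, 0.0531 and 0.0583. The 1 higher member was Herpud1, a membrane protein of the degradation machinery, at 68.8, 79.5 and 74.97 in Con, 124, 124 and 134 in HFD and 221, 223 and 208 in A10-FMT (1.54 ± 0.16, adjusted p = 3.54e-05). All 3 groups were apart for Herpud1.

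**Figure D5:**
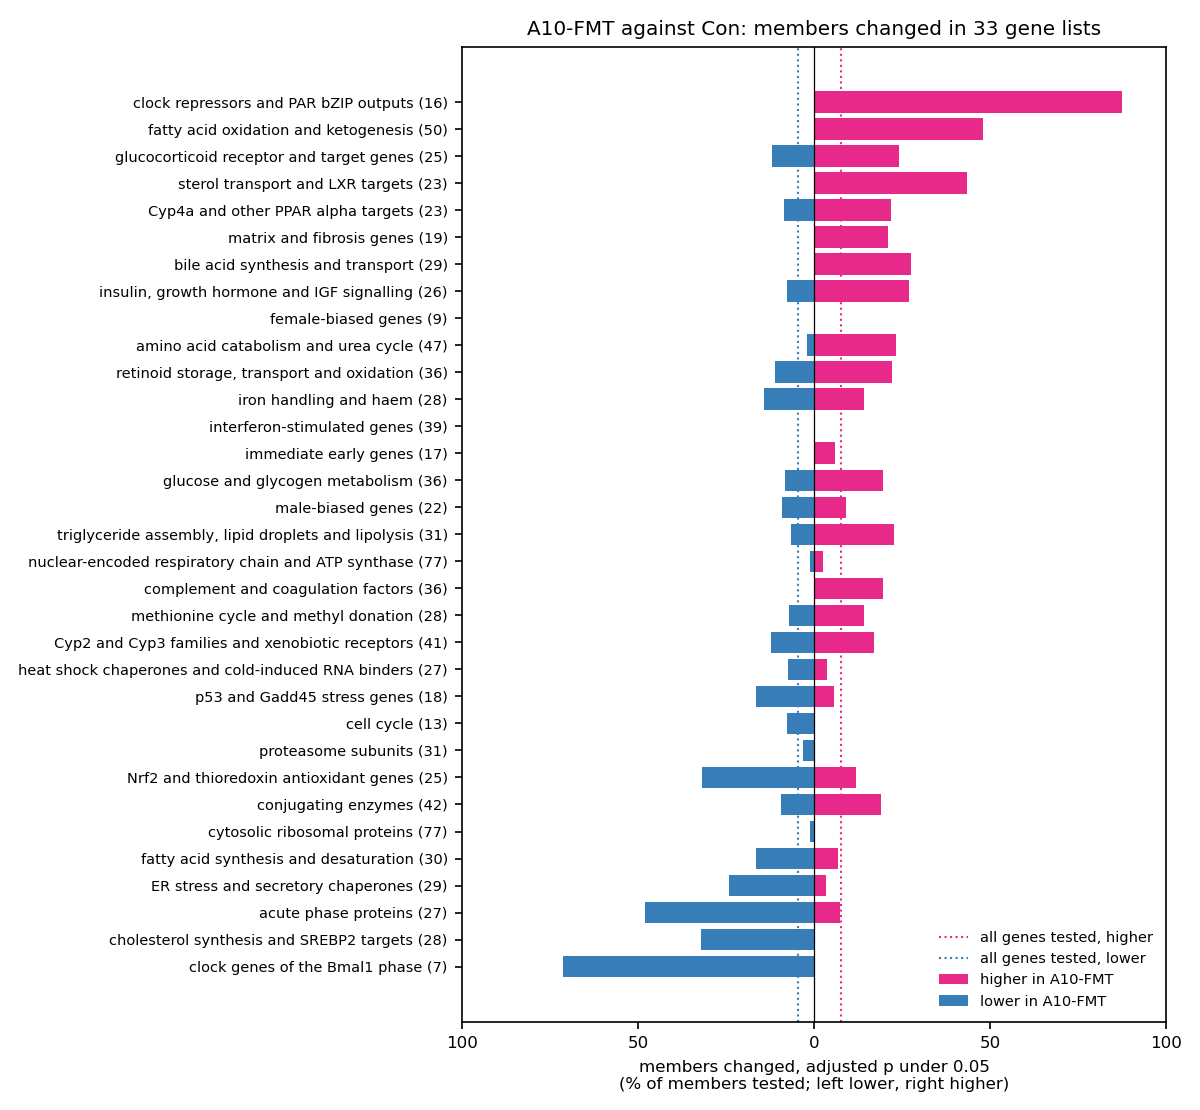
Percent of the tested members of 33 gene lists that were higher (to the right) or lower (to the left) in A10-FMT than in Con at an adjusted p under 0.05 (x axis), with the lists (y axis) ordered by their median log2 difference. Dotted lines mark all genes tested, 7.49% higher and 4.51% lower, and the 2 clock lists stand at the ends.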

How the data were processed

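Liver RNA had been extracted with TRIzol and sequenced on an Illumina HiSeq. By the paper, the authors used SOAPaligner against reference genes, and they deposited RPKM values for 19057 lines of gene symbols (3 symbols on more than 1 line). The submitters' processing notes name Bowtie 0.12.2 and the build mm10. The unit was taken from the paper, since the table header gives none. Read numbers are not beside the values, so the depth is unknown and no counting interval is given. The RPKM worth of 1 read, from 20 genes with few reads, had relative values of 0.986 to 1.03 in the libraries.

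The deposited values were taken as log2(RPKM + 1) without further scaling, so that log2 differences understate the change of low genes. Of 17109 genes with any value above 0, the 10507 that reached an RPKM of 1 in 3 or more libraries were fitted with 1 mean a group, all 18 livers together (limma 3.58.1, lmFit and eBayes with trend, R 4.3.3). Tests were two-sided, with Benjamini-Hochberg adjustment over the 10507 genes. In the text adjusted p is from this fit and ± after a log2 difference is its SE. DEGseq, named in the paper, needs read numbers and was not run. Tables and figures were made with Python 3.11.15, numpy 2.4.6, pandas 2.3.3 and matplotlib 3.10.9. On simulated data with 10507 genes, of which 100 were changed by a log2 of 1 and 100 by a log2 of 2, the fit called 94 and 99 of them in A10-FMT against Con, 0 in the wrong direction and 10 unchanged genes. The simulated livers were independent, with normal noise of 1 spread a gene in all groups. They lacked the unequal spreads of the data and the likeness of Con and AOS replicates 3 to their groups. The simulation thus checks the code and gives no error rate for these data.

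The comparison, the 33 pathway lists and the 13 marker lists were chosen with earlier results of these data known. Genes were named by rule: the 8 largest changes in each direction without overlap, up to 3 changed members of each list with the smallest p (or the member with the smallest p where none changed), and 40 fixed genes of lipid, retinoid, clock, growth and heat shock biology. Dhrs9 and Lepr among these were below the filter. Some genes that this rule names are not reported here. Any other gene named was chosen after its values were seen. Replicate numbers did not pair the samples. Alternatives were equal library medians, a pseudocount of 0.1, no filter, an RPKM of at least 5 and a fit of the 2 groups alone. Others were the replicate number as a block, array weights, each A10-FMT or Con library left out in turn, and Con and AOS replicates 3 left out. The setting with Con replicates 1 and 3 left out was added after the data were seen.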

Additional observations from a re-analysis of the deposited data

How the results depend on the processing

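The 1261 changed genes became 632 with only the A10-FMT and Con livers in the fit, 552 without Con and AOS replicates 3, 159 without Con replicates 1 and 3, and 3297 with array weights, whose iteration stopped before convergence. At the study cut-offs the 62 genes became 20, 24, 2 and 170 in these 4 settings. The 170 genes changed at least 2-fold became 146, 115, 67 and 232. Leaving out 1 A10-FMT or Con liver in turn gave 670 to 1373 changed genes, 31 to 87 at the study cut-offs and 122 to 210 at least 2-fold. Other settings gave 1059 genes without a filter, 1510 with equal library medians, 1272 with a pseudocount of 0.1 and 1123 with an RPKM of at least 5. The share of higher genes, 62.4%, was 51.0% without Con replicate 1, 50% with array weights and 41.5% without Con replicates 1 and 3. The excess of the distance between A10-FMT and Con livers, 0.146, was 0.112 to 0.180 over all settings that gave a value. With the replicate number as a block 1210 genes changed, 1143 of them shared. The numbers carried no pairing by the data (correlations of deviations 0.0755, 0.0345 and -0.0592, with 2 of 3 A10-FMT livers closest to the Con liver of their number). Of the 119 named genes 103 changed, of which 22, 21 and 65 were lost with only 2 groups, without Con and AOS replicates 3 and without Con replicates 1 and 3. No value changed sign while called. Of 687 list medians under the alternatives, 55 moved by more than the spread between livers. The causes of these shifts were not tested. The depth of the libraries is unknown, which limits what can be said of genes near an RPKM of 1.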

Other observations

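Collagen and other matrix genes were higher in A10-FMT in 4 of 19 and lower in 0 (median 0.27), against 7.49% and 4.51% of all genes tested. The number was 2 without A10-FMT replicate 2, 7 without A10-FMT replicate 3 and 2 without Con replicate 1. Bgn, the proteoglycan biglycan, was at 28.8, 33.1 and 32.8 in Con and 45.4, 46.7 and 41.6 in A10-FMT (adjusted p = 0.0138, 0.0580 without A10-FMT replicate 2 and 0.0674 without Con replicate 1), Sparc, a collagen-binding protein, rose by 0.48 (adjusted p = 0.00692) and Col1a2, a chain of type I collagen, by 0.60 (adjusted p = 0.00800). Of stellate cell and fibroblast markers 4 of 12 were higher, and 2 of these, Col1a2 and Col3a1, are also among the 4 matrix genes. The number was 2 without A10-FMT replicate 1, A10-FMT replicate 2 or Con replicate 3. The summed RPKM of these markers was 172.6 to 187.2 in A10-FMT against 115.5 to 148.0 in Con, and their part in the matrix values was not tested. The summed RPKM of the matrix list was 327.8 in A10-FMT replicate 1, the liver with fat cell transcripts, 315.9 and 300.7 in the others and 236.1 to 265.6 in Con. Markers of sinusoidal endothelium (12), antigen presentation (6), T and NK cells (2), B cells (2), red cells (7), fat cells (2) and pancreas (1) had 0 changed in either direction among the markers tested, the numbers in brackets. Antigen presentation markers summed to 100.5 in A10-FMT replicate 1 and to 62.57 and 63.53 in the other A10-FMT livers, with 54.34 to 60.36 in Con. Of 5 cholangiocyte markers 1 was lower (Sox9), and of 2 intestinal markers 1 was higher (Fabp2).

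Amino acid breakdown and the urea cycle had 11 of 47 higher and 1 lower (median 0.16), with 7, 6, 6 and 7 higher without A10-FMT replicates 1 and 2 and Con replicates 1 and 3. Tdo2, which opens the tryptophan ring, rose by 0.87 (adjusted p = 0.00262) and Prodh2, a hydroxyproline dehydrogenase, by 0.65 (0.00302). Complement and coagulation factors had 7 of 36 higher and 0 lower, with 4 without A10-FMT replicate 2 or Con replicate 1. Among them F11 rose by 0.71 (adjusted p = 0.000628), F13b by 0.57 (0.00116) and Klkb1 by 0.48 (0.00251). The methionine and folate list had 4 of 28 higher and 2 lower, with 2 higher without A10-FMT replicate 1 or 2 or Con replicate 1 or 3.

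Insulin, growth hormone and IGF signalling had 7 of 26 higher and 2 lower, with 4 higher without A10-FMT replicate 3 or Con replicate 1. Stat5b, the growth hormone signal transducer, fell by 0.50 on the log2 scale (adjusted p = 0.00202) and Igfbp4, an IGF binding protein, rose by 0.50 (0.00358), while Igf1 overlapped (0.507). Conjugating enzymes had 8 of 42 higher and 4 lower, the number lower being 0 to 2 without A10-FMT replicate 1 or 2 or any Con replicate. Nrf2 targets had 3 of 25 higher and 8 lower, the number lower being 0 without A10-FMT replicate 2, Con replicate 1 or Con replicate 3. Osgin1, an Nrf2 target, fell by 1.10 on the log2 scale (adjusted p = 0.0149, with 0.0564, 0.0720 and 0.0599 without A10-FMT replicate 2, Con replicate 1 and Con replicate 3) and Prdx6, a peroxiredoxin, rose by 0.51 (0.00112). Iron and haem genes had 4 of 28 higher and 4 lower, the number lower being 2 without A10-FMT replicate 1 or 2 or any Con replicate, and Slc11a2, an iron importer, fell by 0.64 on the log2 scale (0.000814).

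Over all genes tested 12.0% changed. The share was 22.2% in the p53 and Gadd45 list, 18.2% in the list of male-biased genes, 11.1% among heat shock chaperones and cold-induced RNA binders and 0% to 7.69% in the other lists below. The p53 and Gadd45 list had 1 of 18 higher (Gadd45a, 1.09, adjusted p = 0.000270) and 3 lower, among them Cdkn1a and Bbc3, an apoptosis gene (-0.97, adjusted p = 0.00569). Immediate early genes had 1 of 17 higher (Maff), cell cycle genes 1 of 13 lower (Mcm7), proteasome subunits 1 of 31 lower (Psmd11), ribosomal proteins 1 of 77 lower (Rpl38) and the respiratory chain 2 of 77 higher and 1 lower. The number higher in the respiratory chain was 6 without Con replicate 2 and 1 without A10-FMT replicate 1 or 3 or Con replicate 3. It was 0 without A10-FMT replicate 2, without Con replicate 1 or without Con and AOS replicates 3. Heat shock chaperones and cold-induced RNA binders had 1 of 27 higher (Rbm3) and 2 lower (Hspa4l and Hspb1). Hspa4l and Hspb1 did not pass without A10-FMT replicate 1 or 2 or any Con replicate (adjusted p = 0.0517 to 0.139), and 0 of the list were higher or lower without Con and AOS replicates 3. Mcm7 and Rbm3 did not pass without A10-FMT replicate 2 or Con replicate 1 (adjusted p = 0.0605 and 0.0649 for Mcm7, 0.0705 and 0.0548 for Rbm3), nor did Rbm3 without Con replicate 3 (0.0608). Psmd11 did not pass without A10-FMT replicate 1 or 2 or Con replicate 2 or 3 (0.0645 to 0.126), and Rpl38 did not without A10-FMT replicate 1 or 3 or Con replicate 2 or 3 (0.0539 to 0.0892). Male-biased genes had 2 of 22 higher (Cyp2d9 and Slco1a1) and 2 lower. The number higher was 0 without A10-FMT replicate 2, Con replicate 1, Con replicate 3 or Con and AOS replicates 3, and 1 without A10-FMT replicate 1 or 3. Slco1a1 had an adjusted p of 0.0509 to 0.102 where it did not pass with 1 liver left out. Of female-biased genes 0 of 9 changed, and of interferon-stimulated genes 0 of 39. The smallest adjusted p of the interferon list was that of Tap1, a peptide transporter, at 0.0547.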
